A study of Mus musculus with 12 samples.

Results

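The genes described here are 37 genes of mature oligodendrocytes and of myelin, each taken as the row of the expression table with that gene's symbol, out of 21738 distinct symbols in the table. All 37 symbols had a row, and 36 of them were among the 11693 genes that passed the filter on low counts and were tested. Poly(A) RNA from whole cortex of adult mice was sequenced in 12 libraries of 3 Tet1 genotypes, with 4 libraries each of KO, HxD and WT. Tet1 encodes a dioxygenase that oxidises 5-methylcytosine in DNA, and the study's title sets its catalytic against its non-catalytic functions. KO is labelled as a Tet1 knockout and HxD carries the name of the histidine and aspartate motif with which TET enzymes hold iron. The sources used here do not say how either allele was made, nor the strain, the sex or the age beyond adult.

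Tet1 had 0 estimated counts in KO 1 to 4, then 1, 0, 63 and 67 in HxD 1 to 4, and 0 in WT 1 to 4, so its row does not check the knockout label. The estimated counts of a library came to 5791642 to 9535409 in KO, 7767787 to 10347432 in HxD and 8310783 to 10915574 in WT. Whether the libraries are from separate animals is not in the labels, and p-values therefore reflect only sample-to-sample spread, which can be technical. Levels are given as CPM, a gene's counts per 1000000 counts of all tested genes, scaled between libraries by edgeR's TMM factors. A gene counts as called when its edgeR p, adjusted by Benjamini-Hochberg over all tested genes, is below 0.05. All 3 comparisons come from 1 fit and share libraries with each other.

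Oligodendrocytes wrap axons of the central nervous system in myelin, a stack of tightly apposed membrane that speeds conduction and feeds the axon. The sheath is built from a small set of abundant membrane and adhesion proteins and from galactolipids and cholesterol that the cell makes itself. Sox10 and the Olig factors keep the lineage identity, and Myrf, which is switched on as precursors mature, turns on the myelin genes in mature cells. In the cortex these cells lie mainly in the deep layers and in the white matter beneath them.

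No oligodendrocyte or myelin gene passed the test in any comparison of 2 genotypes. In KO against HxD, 34 of the 36 tested genes had a higher fitted level in KO and 2 a lower one, with a median log2 fold change of 0.48, where 50.2% of all genes tested were higher and their median was 0.00. In KO against WT, 30 of 36 were higher and 6 lower with a median of 0.22, where 50.9% of all genes tested were higher and their median was 0.01. In HxD against WT, 8 of 36 were higher and 28 lower with a median of -0.24, where 51.3% of all genes tested were higher and their median was 0.01. By edgeR, 0 of 36 were called in each of the 3 comparisons, where 1.02%, 0.154% and 0.898% of all genes tested were called in KO against HxD, KO against WT and HxD against WT. DESeq2 and limma-voom also called 0 of 36 in each, where DESeq2 called 3.39%, 2.46% and 1.47% of all genes tested and limma-voom 0.718%, 0% and 0.693% in the same order. An unadjusted p below 0.05 was reached by 2, 1 and 0 of the 36, and by 11.6%, 9.48% and 4.05% of all genes tested. For 0 of the 36 did the 4 libraries of one genotype lie wholly above or below those of another. That separation was reached, higher and lower in the first-named genotype, by 3.97% and 3.62% of all genes tested in KO against HxD, by 3.25% and 3.95% in KO against WT, and by 1.76% and 1.72% in HxD against WT. In bulk tissue, fewer oligodendrocytes and less of an mRNA per oligodendrocyte cannot be told apart.

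**Figure D1:**
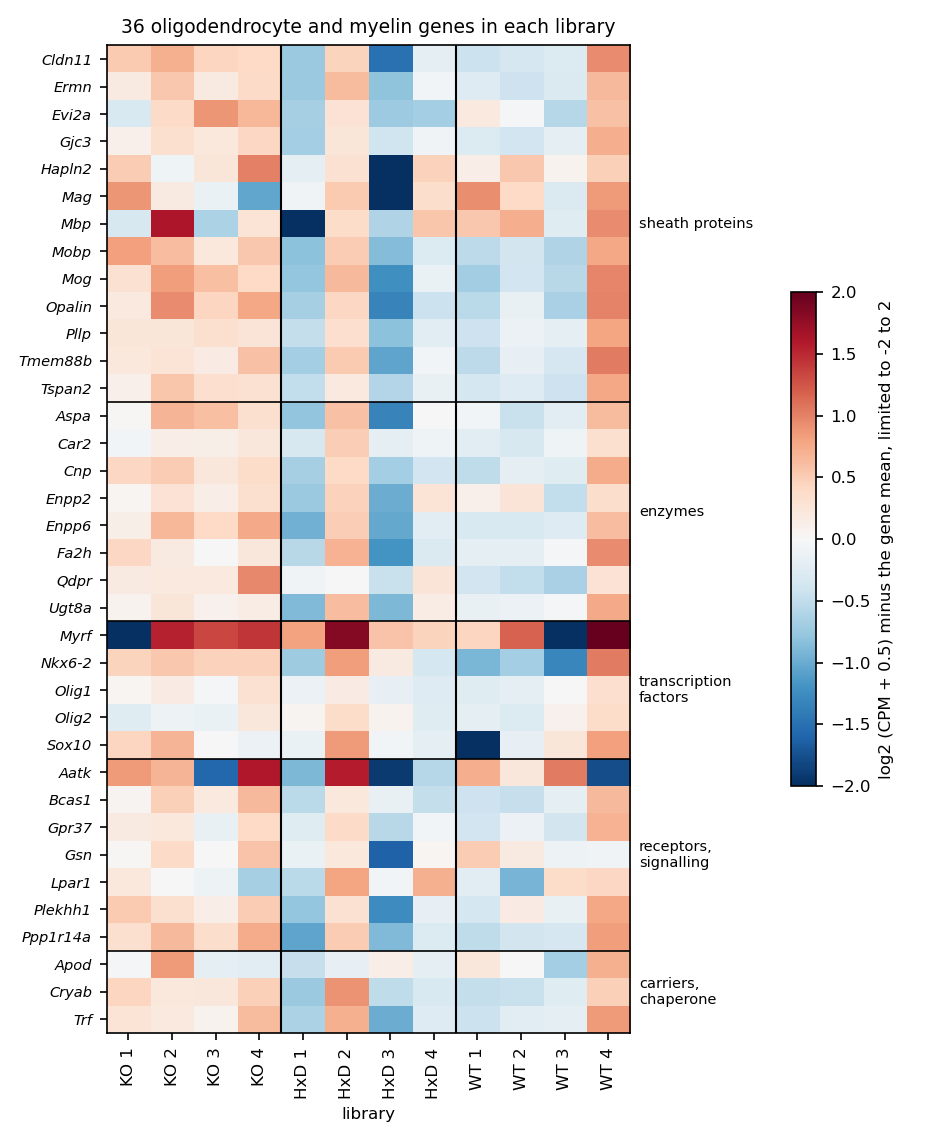
Level of each of the 36 tested genes (rows, grouped by role) in each of the 12 libraries (columns), as log2 (CPM + 0.5) minus the gene's mean over all libraries, with colours limited to -2 and 2. HxD 2 and WT 4 stand out as columns of high values for most genes, HxD 1 and HxD 3 as columns of low values, and the 4 KO libraries look alike, while Myrf, Mbp, Mag and Aatk vary between neighbouring columns.

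The DNA just upstream of these genes is shown for 4 of them, because TET1 acts mainly on the cytosine of CG pairs. RefSeq promoter windows of build GRCm38.p6 matched 26 of the 37 symbols, with 36 start sites. The 250 bases before each start were searched on both strands for CG pairs and for the letters ACAAAG and ACAATG, which appear as CTTTGT and CATTGT on the opposite strand and are letters that Sox proteins such as Sox10 are known to bind. Mobp and Opalin have few CG pairs in this window and Qdpr and Olig2 have many. The windows are Mobp at chr9:120149492-120149741 on the plus strand, Opalin at chr19:41077114-41077363 on the minus strand, Qdpr at chr5:45450230-45450479 on the minus strand and Olig2 at chr16:91225300-91225549 on the plus strand. Each is printed 5′ to 3′ along the gene's strand and ends at the base before the start, with CG pairs and Sox letters in capitals.
Mobp: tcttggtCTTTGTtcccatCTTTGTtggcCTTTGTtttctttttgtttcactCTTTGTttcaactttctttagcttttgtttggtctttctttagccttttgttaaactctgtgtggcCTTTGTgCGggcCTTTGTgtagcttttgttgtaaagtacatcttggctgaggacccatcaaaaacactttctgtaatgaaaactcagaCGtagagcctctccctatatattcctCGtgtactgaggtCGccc
Opalin: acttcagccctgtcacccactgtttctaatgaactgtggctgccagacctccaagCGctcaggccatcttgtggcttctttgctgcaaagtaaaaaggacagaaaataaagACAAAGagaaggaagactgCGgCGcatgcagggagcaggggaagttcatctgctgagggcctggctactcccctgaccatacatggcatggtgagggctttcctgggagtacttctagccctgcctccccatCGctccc
Qdpr: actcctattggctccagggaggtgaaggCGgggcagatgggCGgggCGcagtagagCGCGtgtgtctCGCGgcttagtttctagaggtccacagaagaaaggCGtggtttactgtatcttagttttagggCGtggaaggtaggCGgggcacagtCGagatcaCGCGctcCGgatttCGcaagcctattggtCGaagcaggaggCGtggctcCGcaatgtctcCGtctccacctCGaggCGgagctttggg
Olig2: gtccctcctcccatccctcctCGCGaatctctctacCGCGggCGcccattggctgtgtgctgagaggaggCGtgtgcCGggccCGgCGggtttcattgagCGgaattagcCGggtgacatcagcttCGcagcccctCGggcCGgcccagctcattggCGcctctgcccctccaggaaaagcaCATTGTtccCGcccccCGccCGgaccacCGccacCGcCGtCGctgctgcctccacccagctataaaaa
Mobp holds 4 CG pairs and 6 matches to the Sox letters, all as CTTTGT, and Opalin holds 4 CG pairs and 1 match. Qdpr holds 21 CG pairs and 0 matches, and Olig2 holds 22 CG pairs and 1 match. The 4 windows do not stand for all. Cldn11, Plekhh1 and Nkx6-2, which were high in WT 4 as Mobp and Opalin were, hold 19, 18 and 26 CG pairs and 0 matches. Mog, also high in WT 4, holds 2 CG pairs and 0 matches. The 6 matches of Mobp were the most in any of the 36 windows. Whether the sequence goes with the variation between libraries was not tested. Over the 36 windows the number of CG pairs ran from 2 to 32 with a median of 9, against 6 over all 32851 windows. Windows with 4 or fewer CG pairs made up 44.4% of the oligodendrocyte windows and 44.4% of all windows, and those with 10 or more were 18 of the 36, against 37.8% of all windows. Sox letters stood in 17 of 36 windows of 13 genes, which is 47.2%, against 25.2% of all windows. Windows of the same gene can overlap, as those of Mag and Aatk do, and a match to these letters is a description of the sequence and not a binding site.

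Most of these genes stood high or low together in single libraries. A score for each library was taken as the median over the 36 genes of log2 (CPM + 0.5) minus that gene's mean in the 12 libraries. It was 0.19, 0.38, 0.18 and 0.40 in KO 1 to 4. In HxD 1 to 4 it was -0.67, 0.48, -0.81 and -0.17, and in WT 1 to 4 it was -0.29, -0.20, -0.24 and 0.73. The 4 KO libraries thus lay close together inside the range of both other genotypes, HxD held both low libraries and a high one, and in WT a single library stood above the other 3. The means were 0.29 ± 0.12 in KO, -0.29 ± 0.58 in HxD and 0.00 ± 0.49 in WT (SD, n = 4). The summed level of these genes showed the same order of libraries within HxD and WT, with 3749, 4246, 3683 and 4448 CPM in KO 1 to 4, 2315, 4539, 2079 and 3046 CPM in HxD 1 to 4, and 2670, 2874, 2727 and 5113 CPM in WT 1 to 4.

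**Figure D2:**
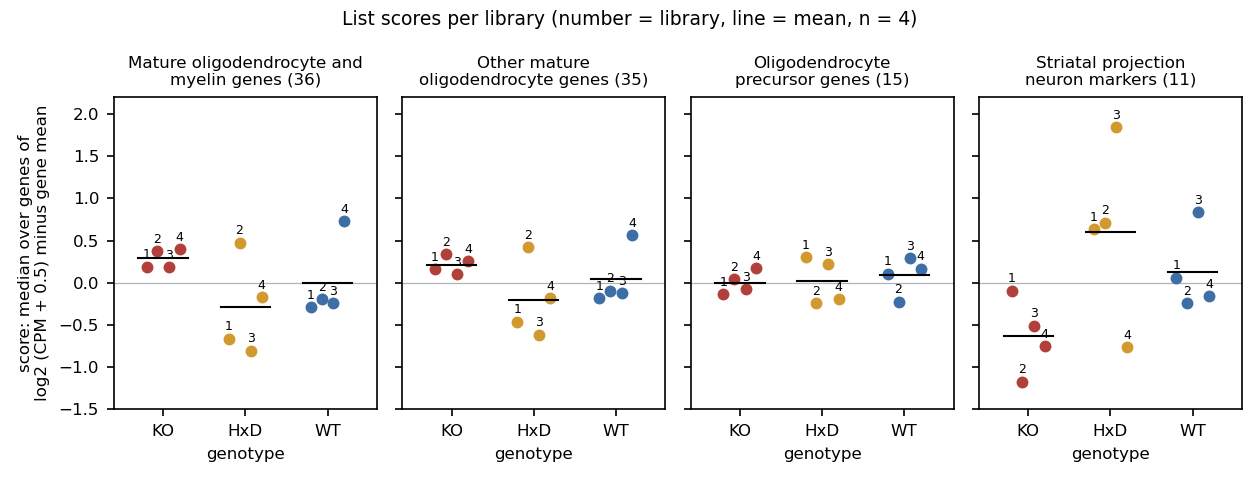
Score of 4 gene lists in each library (points, numbered by library, with a line at the mean of 4 libraries), in log2 units around each gene's mean. For the mature oligodendrocyte and myelin genes HxD 1 and HxD 3 stand at -0.67 and -0.81, HxD 2 at 0.48 and WT 4 at 0.73, the other mature oligodendrocyte genes spread in the same way, and the precursor genes stay between -0.24 and 0.30.

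No KO library was highest or lowest for most genes, since KO 1 to 4 were the highest for 5, 13, 2 and 16 of the 36 genes and the lowest for 17, 3, 11 and 5. HxD 2 was the highest HxD library for 32 of 36 genes, where it was the highest for 27.4% of all genes tested, with Apod, Mbp, Hapln2 and Qdpr as the exceptions. HxD 3 was the lowest HxD library for 23 of them and HxD 1 for 9. WT 4 was the highest WT library for 32 of 36, where it was the highest for 25.4% of all genes tested. The exceptions were Aatk, Gsn, Hapln2 and Mag. Its level over the mean of WT 1 to 3 had a median of 1.94 over the 36 genes, against 0.991 over all genes tested. The ratio was above 1 for 34 genes, above 1.5 for 27 and above 2 for 16, and it ran from 0.168 for Aatk to 4.13 for Nkx6-2.

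The membrane and adhesion proteins of the sheath make up 14 of the genes, 13 of them tested. In KO against HxD, 13 of 13 had a higher fitted level with a median log2 fold change of 0.68. In KO against WT, 11 of 13 were higher with a median of 0.30, and in HxD against WT, 0 of 13 were higher with a median of -0.34. None was called. Mobp, a small basic protein that lies between the cytoplasmic faces of the sheath, had 75.5, 65.6, 49.6 and 62.2 CPM in KO 1 to 4, against 24.1, 60.8, 23.3 and 35.4 CPM in HxD 1 to 4 and 29.5, 32.9, 28.0 and 73.6 CPM in WT 1 to 4. HxD 2 and WT 4 fell within the KO range and the other 6 libraries of these genotypes lay below it. Its fitted difference was 0.82 ± 0.38 (SE) on the log2 scale for KO against HxD (adjusted p = 0.445), 0.62 ± 0.38 for KO against WT (adjusted p = 0.667) and -0.19 ± 0.38 for HxD against WT (adjusted p = 0.999).

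Mog, an adhesion protein on the outermost face of myelin, had 98.3, 142, 121 and 106 CPM in KO 1 to 4, against 46.3, 125, 33.7 and 72.9 CPM in HxD 1 to 4 and 49.2, 60.8, 54.2 and 157 CPM in WT 1 to 4. Again HxD 2 and WT 4 alone reached the KO level, and WT 4 was the highest of all 12 libraries. Cldn11, the claudin that seals the sheath with tight junctions, followed this with 268, 304, 251 and 245 CPM in KO, against 111, 254, 65.7 and 161 CPM in HxD and 137, 147, 154 and 356 CPM in WT. Its libraries ran over a 3.86-fold range within HxD, and over 1.24-fold within KO. Opalin, a membrane glycoprotein found in central myelin, had 29.5, 49.6, 34.6 and 44.2 CPM in KO, against 15.9, 34.4, 9.84 and 18.9 CPM in HxD and 17.5, 23.0, 16.2 and 51.6 CPM in WT. Its fitted difference between KO and HxD was the largest of the 36 genes in that comparison at 0.997 ± 0.443 on the log2 scale, with a 95% interval of 0.02 to 1.98 and an adjusted p of 0.428. KO 1 lay below HxD 2 in this gene.

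Evi2a, a membrane protein, had 20.6, 33.4, 47.6 and 41.0 CPM in KO 1 to 4, against 15.9, 31.3, 15.2 and 15.8 CPM in HxD 1 to 4 and 29.4, 25.0, 17.0 and 38.5 CPM in WT 1 to 4. HxD 1, 3 and 4 were close together and below every KO library, and HxD 2 lay inside the KO range. Pllp, a tetraspan protein that sorts myelin lipids and proteins, was the steadiest of the genes in KO, with 75.7, 75.6, 80.1 and 76.7 CPM, against 45.8, 81.0, 36.1 and 55.2 CPM in HxD and 47.5, 58.7, 55.8 and 111 CPM in WT. Its highest KO library was 1.06-fold its lowest, a ratio that was 2.25 in HxD and 2.34 in WT. Ermn, a cytoskeletal protein of myelin, Gjc3, a connexin, Tmem88b and the tetraspanin Tspan2 showed the same arrangement, with WT 4 the highest and HxD 3 or HxD 1 the lowest library of its genotype for each. Their levels ran from 73.3 to 211 CPM in KO, 37.6 to 164 CPM in HxD and 52.3 to 247 CPM in WT.

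Mbp and Mag did not follow the other sheath genes. Mbp, the basic protein that compacts the sheath, had 15.4, 60.5, 12.3 and 23.4 CPM in KO 1 to 4, against 1.62, 25.2, 12.5 and 28.6 CPM in HxD 1 to 4 and 28.2, 32.4, 16.3 and 37.8 CPM in WT 1 to 4. HxD 1 held 15 estimated counts and KO 2 held 453, and the genotypes overlapped throughout. The fitted differences were 0.72 ± 0.73 for KO against HxD, -0.04 ± 0.73 for KO against WT and -0.75 ± 0.73 for HxD against WT, with adjusted p-values of 0.775, 0.995 and 0.999. Mag, the adhesion protein that faces the axon, had 32.4, 19.6, 15.7 and 8.20 CPM in KO, against 16.5, 25.2, 2.46 and 22.2 CPM in HxD and 33.3, 22.9, 14.1 and 31.6 CPM in WT. For neither gene was the fitted level in KO above that in WT. Hapln2, a link protein of the matrix around nodes of Ranvier, was low in every library, with 44, 36, 58 and 64 estimated counts in KO, against 42, 50, 0 and 75 in HxD and 50, 81, 45 and 74 in WT. Mal, a proteolipid of the sheath, was listed at 1 count in KO 2 and at 0 in the other 11 libraries, and it did not pass the filter. Genes that every cell uses are also listed at 0 in this table, so a 0 is not read as absence.

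The 8 enzymes had a median log2 fold change of 0.43 in KO against HxD with 8 of 8 higher. It was 0.26 in KO against WT with 6 of 8 higher, and -0.26 in HxD against WT with 2 of 8 higher, and 0 were called. Cnp, a phosphodiesterase that keeps the channels of cytoplasm in the sheath open, had 403, 433, 357 and 393 CPM in KO 1 to 4, against 191, 402, 189 and 232 CPM in HxD 1 to 4 and 214, 265, 257 and 508 CPM in WT 1 to 4. In HxD and in WT, 3 of 4 libraries lay below every KO library. The fitted difference was 0.65 ± 0.30 for KO against HxD (adjusted p = 0.445), 0.35 ± 0.30 for KO against WT (adjusted p = 0.793) and -0.30 ± 0.30 for HxD against WT (adjusted p = 0.999).

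Qdpr, which regenerates the cofactor tetrahydrobiopterin, had the smallest p of the genes in KO against WT. It had 252, 256, 256 and 437 CPM in KO 1 to 4, against 214, 223, 164 and 267 CPM in HxD 1 to 4 and 171, 159, 143 and 272 CPM in WT 1 to 4. KO 1 to 3 were nearly equal, KO 4 was far above them, and WT 4 and HxD 4 were above KO 1 to 3. Its log2 fold change of 0.69 ± 0.25 in KO against WT had a 95% interval of 0.13 to 1.24, and its adjusted p of 0.415 did not pass. Enpp6, a choline phosphodiesterase known from newly forming oligodendrocytes, had 13.5, 19.9, 16.6 and 21.4 CPM in KO, against 6.14, 17.7, 5.85 and 10.6 CPM in HxD and 9.92, 9.997, 10.3 and 19.3 CPM in WT. Here too 3 of 4 libraries in HxD and in WT lay below every KO library, and the difference of 0.82 ± 0.38 between KO and HxD and of 0.52 ± 0.37 between KO and WT did not pass (adjusted p = 0.435 and 0.729).

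The lipid enzymes Ugt8a, which makes galactosylceramide, and Fa2h, which hydroxylates its fatty acids, differed little between KO and WT, at -0.03 ± 0.34 and -0.0043 ± 0.38 on the log2 scale. Ugt8a was held between 64.6 and 72.9 CPM in the KO libraries, against 32.6 to 94.4 CPM in HxD and 55.2 to 104 CPM in WT. Fa2h had 43.4 to 57.7 CPM in KO, 18.6 to 70.6 CPM in HxD and 37.8 to 83.7 CPM in WT. Enpp2, the enzyme autotaxin that makes lysophosphatidic acid, Aspa, which splits N-acetylaspartate, and Car2, a carbonic anhydrase, completed the group. Car2 varied least between genotypes, with 343 ± 27.1 CPM in KO, 320 ± 85.4 CPM in HxD and 306 ± 63.4 CPM in WT (SD, n = 4). Enpp2 averaged 312 ± 28.3, 251 ± 119.6 and 289 ± 68.4 CPM and Aspa 26.5 ± 5.29, 17.0 ± 9.93 and 20.1 ± 7.17 CPM in KO, HxD and WT (SD, n = 4).

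**Figure D3:**
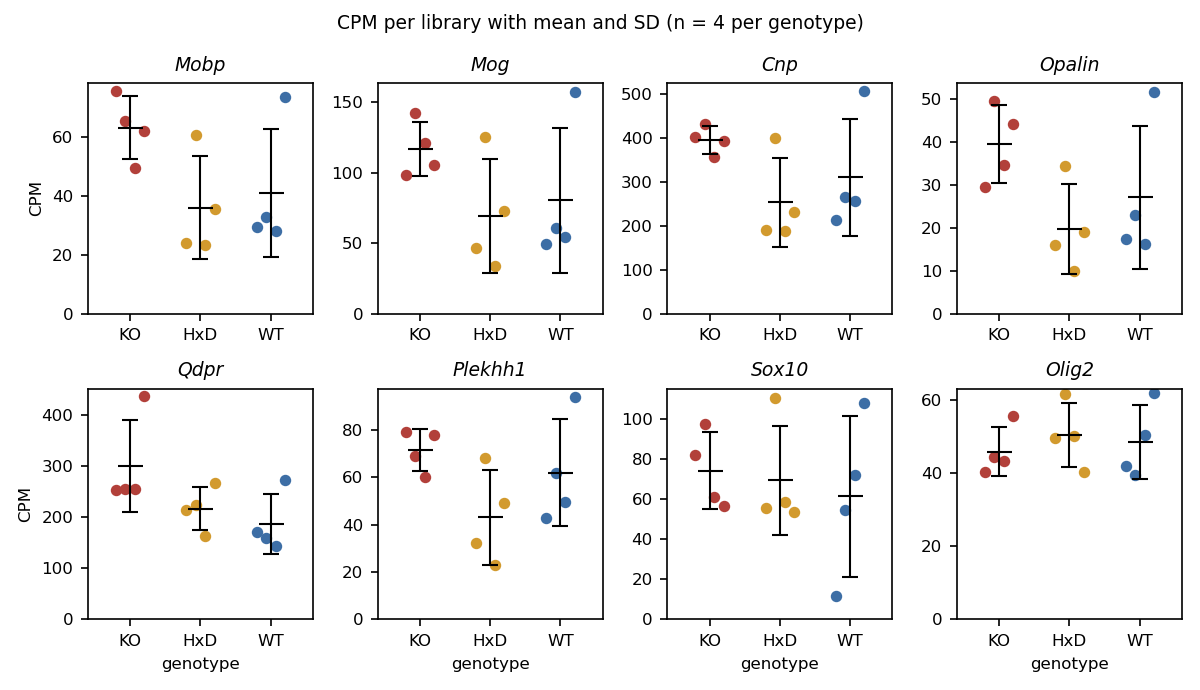
CPM per library (points, linear axis from 0) with the mean and SD of 4 libraries for 8 of the genes. Mobp, Mog, Cnp, Opalin and Plekhh1 each have 1 high HxD library and 1 high WT library at or near the KO level with the rest mostly below it, Qdpr has 1 high KO library, and Olig2 stays at 39.5 to 62.0 CPM in all 12 libraries.

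Of the groups by role, the 5 transcription factors had the median log2 fold changes nearest to 0. They were 0.10 in KO against HxD, 0.13 in KO against WT and 0.06 in HxD against WT. In each, 4 of 5 were higher and 0 called, counting Myrf, which is listed at 0 in some libraries. The median does not hold for each factor, since Nkx6-2 stood at 0.64 ± 0.52 in KO against WT. Olig2, the factor that specifies the lineage, had 40.2, 44.4, 43.2 and 55.7 CPM in KO 1 to 4, against 49.5, 61.7, 50.2 and 40.2 CPM in HxD 1 to 4 and 41.9, 39.5, 50.6 and 62.0 CPM in WT 1 to 4. The genotypes overlapped nearly whole, and the fitted difference was -0.14 ± 0.18 for KO against HxD, -0.08 ± 0.18 for KO against WT and 0.06 ± 0.18 for HxD against WT. The 95% interval of KO against WT was -0.47 to 0.31, which leaves out a 2-fold difference in either direction. Olig1, its neighbour and close relative, averaged 238 ± 24.6 CPM in KO, 206 ± 26.9 CPM in HxD and 218 ± 42.2 CPM in WT (SD, n = 4), and its WT 4 was 1.40-fold the mean of WT 1 to 3, against 1.41-fold for Olig2 and 2.87-fold for Mog.

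Sox10, which acts upstream of Myrf and with it on myelin genes, had 82.0, 97.3, 61.1 and 56.2 CPM in KO 1 to 4, against 55.3, 110.1, 58.3 and 53.6 CPM in HxD 1 to 4 and 11.3, 54.4, 71.9 and 108 CPM in WT 1 to 4. WT 1 held 99 estimated counts where WT 2 to 4 held 571, 592 and 1076. The differences of 0.10 ± 0.52 in KO against HxD, 0.27 ± 0.52 in KO against WT and 0.17 ± 0.52 in HxD against WT did not exceed the spread of the libraries. Myrf had 0, 615, 668 and 448 estimated counts in KO 1 to 4, against 458, 779, 355 and 392 in HxD 1 to 4 and 331, 672, 0 and 1193 in WT 1 to 4. Because Myrf is listed at 0 in KO 1 and WT 3, where the other myelin genes stood near their genotype's level, no fold change is given for it. Nkx6-2, a homeobox factor of mature oligodendrocytes, was nearly constant in KO at 20.4, 21.9, 20.6 and 20.7 CPM, against 8.94, 27.0, 17.0 and 11.6 CPM in HxD and 7.64, 9.14, 5.71 and 31.0 CPM in WT. KO lay above WT 1 to 3 and below WT 4 in this gene, and the difference of 0.64 ± 0.52 did not pass (adjusted p = 0.777).

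Receptors, signalling and cytoskeletal proteins are the fourth group, with 7 genes. Their median log2 fold change was 0.57 in KO against HxD with 6 of 7 higher, 0.21 in KO against WT with 6 of 7 higher and -0.22 in HxD against WT with 1 of 7 higher, and 0 were called. Plekhh1, a protein with a FERM domain that links membrane and cytoskeleton, had the smallest p in HxD against WT. It had 79.1, 68.8, 60.2 and 78.1 CPM in KO 1 to 4, against 32.0, 68.0, 22.8 and 49.2 CPM in HxD 1 to 4 and 42.9, 61.6, 49.3 and 93.9 CPM in WT 1 to 4. HxD 2 exceeded 3 of the WT libraries, so the difference of -0.53 ± 0.33 between HxD and WT (95% interval -1.26 to 0.21, adjusted p = 0.999) lay within the spread. Gsn, the actin-severing protein gelsolin, had 52.2, 66.8, 50.8 and 76.9 CPM in KO, against 46.8, 59.5, 16.4 and 52.9 CPM in HxD and 73.6, 58.1, 48.0 and 49.1 CPM in WT. It did not share the high WT 4 of the other genes, and HxD 3 alone was low.

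Bcas1, known from oligodendrocytes that have just begun to myelinate, had 47.1, 63.7, 52.0 and 71.4 CPM in KO 1 to 4, against 31.2, 52.8, 40.9 and 32.8 CPM in HxD 1 to 4 and 34.1, 33.1, 39.7 and 71.9 CPM in WT 1 to 4. Ppp1r14a, an inhibitor of myosin phosphatase, had 27.9, 34.9, 28.6 and 37.2 CPM in KO, against 10.4, 31.8, 11.8 and 18.2 CPM in HxD and 15.5, 17.1, 17.4 and 40.0 CPM in WT. Both had WT 4 above the highest KO library and WT 1 to 3 below every KO library, with log2 differences between KO and WT of 0.39 ± 0.27 and 0.51 ± 0.39 (adjusted p = 0.718 and 0.761). Gpr37, a receptor of the oligodendrocyte surface, averaged 112 ± 17.2 CPM in KO, 94.6 ± 26.8 CPM in HxD and 102 ± 40.3 CPM in WT (SD, n = 4). Lpar1, the receptor for the lysophosphatidic acid that Enpp2 makes, was 1 of the 2 genes with a lower fitted level in KO than in HxD, the other being Olig2. Lpar1 had 33.6, 29.1, 27.2 and 18.1 CPM in KO, against 19.8, 50.7, 27.9 and 48.0 CPM in HxD, a difference of -0.44 ± 0.37 (adjusted p = 0.706). The kinase Aatk varied widely, from 6.42 to 61.8 CPM in KO, 4.92 to 60.4 CPM in HxD and 5.51 to 41.7 CPM in WT.

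The last 3 genes encode carriers and a chaperone, and their median log2 fold changes were 0.35 in KO against HxD and 0.21 in KO against WT, with 3 of 3 higher in each, and -0.24 in HxD against WT, with 1 of 3 higher. Cryab, a small heat shock protein, had 129, 111, 112 and 134 CPM in KO 1 to 4, against 57.2, 179, 67.6 and 77.4 CPM in HxD 1 to 4 and 68.8, 69.9, 80.7 and 134 CPM in WT 1 to 4. HxD 2 was the highest of all libraries and the other 3 HxD libraries were below every KO library. Trf, the iron carrier transferrin, which oligodendrocytes make in the brain, had 398, 374, 343 and 507 CPM in KO, against 212, 537, 165 and 275 CPM in HxD and 244, 282, 286 and 592 CPM in WT. Apod, a lipid carrier, was low, at 13.7 to 29.1 CPM in KO, 11.4 to 17.6 CPM in HxD and 9.72 to 26.6 CPM in WT.

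KO against HxD gave the largest fitted differences among the oligodendrocyte genes. Log2 fold changes ran from -0.44 for Lpar1 to 0.997 for Opalin, and Evi2a had the smallest p with 0.87 ± 0.34 (95% interval 0.11 to 1.62, adjusted p = 0.365). After Evi2a and Opalin the smallest p-values belonged to Plekhh1 at 0.73 ± 0.33 and to Enpp6, Cnp and Mobp as given above (adjusted p = 0.430 to 0.445). By size, Evi2a and then Cldn11 at 0.85 ± 0.41 and Ppp1r14a at 0.83 ± 0.40 stood next to Opalin (adjusted p = 0.460 and 0.456). The 95% intervals of 34 of 36 genes included 0. For 32 of 36 they also reached a 2-fold difference in at least 1 direction, so this depth and number of libraries did not exclude one. The median over the 36 genes was 0.79 without HxD 2 and 0.33 without HxD 3, and it stayed above 0 without any other single library.

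In KO against WT the fitted differences were smaller and rested on which WT libraries entered. Log2 fold changes ran from -0.43 for Mag to 0.69 for Qdpr, with Mobp, Bcas1, Enpp6, Cryab and Ppp1r14a next by p. Cryab was higher by 0.46 ± 0.35 (adjusted p = 0.757). The median over the 36 genes was 0.22, and it was 0.57 with 35 of 36 higher without WT 4, and 0.11 with 27 of 36 higher without WT 1. Without WT 4 the number of called members was again 0. The 95% intervals of 35 of 36 genes included 0, and 21 of 36 reached a 2-fold difference.

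In HxD against WT the direction itself rested on single libraries. Log2 fold changes ran from -0.75 for Mbp to 0.33 for Lpar1. After Plekhh1 the smallest p-values belonged to Evi2a at -0.49 ± 0.34, Gsn at -0.38 ± 0.33, Pllp at -0.32 ± 0.29, Cldn11 at -0.42 ± 0.41 and Opalin at -0.45 ± 0.44, each with an adjusted p of 0.999. The median of -0.24 became 0.08 without WT 4, when 12 of 36 genes were lower in place of 28. Without HxD 2 it was -0.58 with 34 of 36 lower, without HxD 1 it was -0.10 and without HxD 3 it was -0.11. All 36 intervals included 0, and 23 of 36 reached a 2-fold difference.

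**Figure D4:**
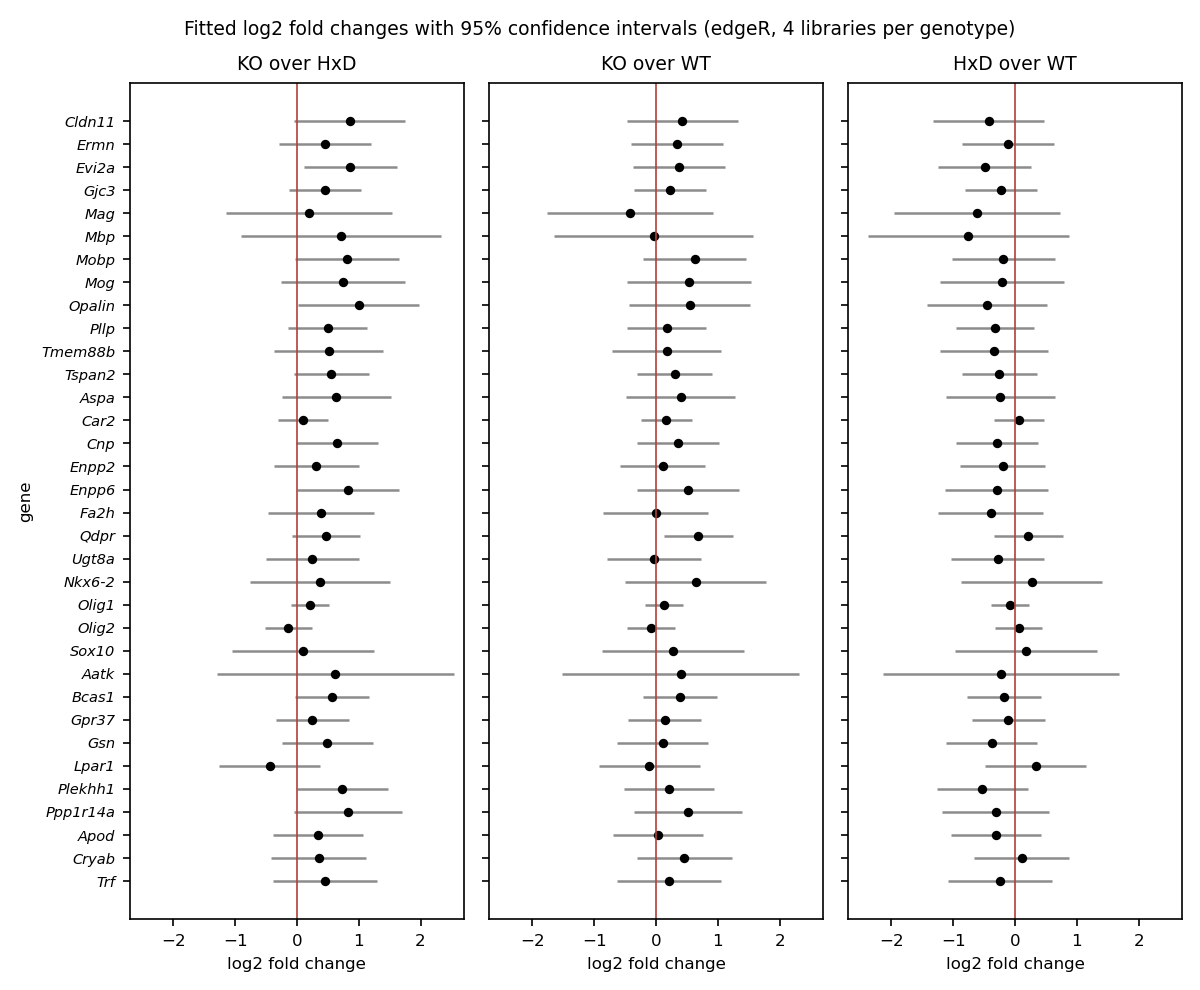
Fitted log2 fold change (points) with its 95% confidence interval (lines) for 34 of the genes in KO over HxD, KO over WT and HxD over WT, from 1 edgeR fit with 4 libraries per genotype. Myrf and Hapln2 are left out because they are listed at 0 in some libraries. Most points lie to the right of 0 in KO over HxD and to the left in HxD over WT, and the intervals of Evi2a and Opalin in KO over HxD and of Qdpr in KO over WT are the ones that do not include 0.

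Within HxD and within WT, libraries differed more in these genes than in the median gene of the table, and within KO they did not. The SD of log2 (CPM + 0.5) over 4 libraries had a median over the 36 genes of 0.231 in KO, 0.677 in HxD and 0.526 in WT. Over all genes tested the medians were 0.276, 0.307 and 0.272. Over the 35 other mature oligodendrocyte genes they were 0.286, 0.518 and 0.480, and over the 15 precursor genes 0.242, 0.495 and 0.276. The wider spread was therefore not particular to the 36 genes, and in HxD the precursor genes shared it. The SD was smaller in KO than in HxD for 32 of 36 genes and smaller than in WT for 29 of 36, where this held for 54.4% and 48.3% of all genes tested. It was below both for 27 of 36, where it was for 36.04% of all. The genes share the same 4 libraries per genotype and vary together in them, and these counts carry no test. The median standard error of the fitted log2 fold changes was 0.36 over the 36 genes in each comparison, against 0.26 over all genes tested. The mean of the 3 SDs had a median of 0.4997 over the 13 genes with 1 RefSeq transcript and of 0.485 over the 23 genes with 2 or more. The 5 genes with the highest values were all in the second set. They were Myrf at 2.62 with 9 transcripts, Aatk at 1.37 with 12, Mbp at 1.09 with 17, Mag at 0.935 with 14 and Hapln2 at 0.858 with 2, and the highest value of a gene with 1 transcript was 0.752 for Sox10. The values of Myrf and Hapln2 include libraries listed at 0. Other genes with many transcripts were not among the highest, with Bcas1 at 0.376 with 15, Enpp2 at 0.414 with 13 and Lpar1 at 0.549 with 13. The part of the number of transcripts in this spread was not tested.

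**Figure D5:**
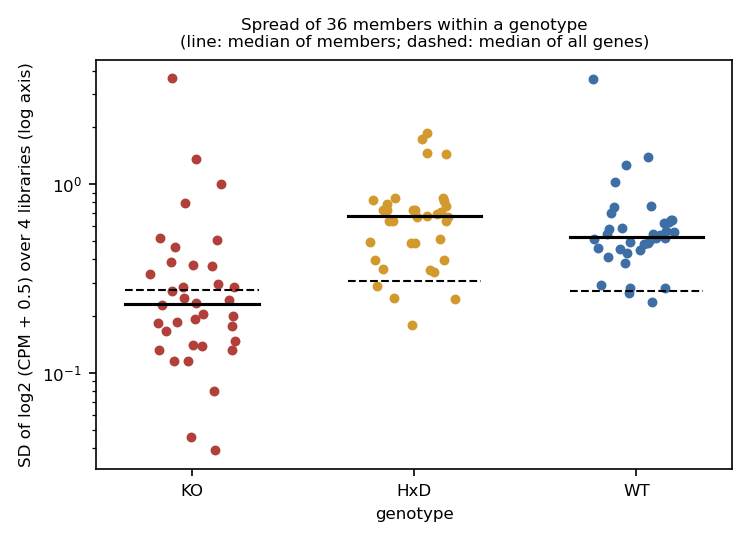
SD over 4 libraries of log2 (CPM + 0.5) on a log axis for each of the 36 genes (points) in each genotype, with the median of these genes (line) and of all genes tested (dashed line). The line lies below the dashed line in KO, at 0.231 against 0.276, and above it in HxD and WT, at 0.677 against 0.307 and 0.526 against 0.272.

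Levels of different genes can be compared only per length. Divided by the kilobases of each gene's longest GENCODE transcript and averaged over the 4 WT libraries, Car2 led with 171 CPM per kilobase, followed by Trf at 136, Qdpr at 135, Cnp at 107, Cldn11 at 106 and Olig1 at 101. Mog stood at 47.2 CPM per kilobase, Mobp at 12.5 and Mag at 10.5. Mbp, which is known as one of the most abundant mRNAs of myelin, stood at 5.97 and ranked 32 of 37, with 17 RefSeq transcripts listed for its symbol. How its reads were assigned is not given in the sources used here, and its level is therefore taken only as the value on that row. Aatk, Hapln2 and Enpp6 were the lowest of the tested genes at 4.03, 2.81 and 2.49 CPM per kilobase.

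Another 48 symbols for genes of mature oligodendrocytes, listed beside the 37 and with 35 of them tested, gave the same arrangement of libraries. The symbols include both Septin4 and Sept4, which name the same gene. Their scores were 0.16, 0.34, 0.10 and 0.26 in KO 1 to 4, against -0.46, 0.42, -0.62 and -0.19 in HxD 1 to 4 and -0.18, -0.09, -0.12 and 0.57 in WT 1 to 4. In KO against HxD 32 of 35 had a higher fitted level with a median log2 fold change of 0.36, in KO against WT 23 of 35 with 0.08, and in HxD against WT 4 of 35 with -0.23. By edgeR 0 were called in each, with 3, 1 and 0 at an unadjusted p below 0.05. Over all genes tested 11.6%, 9.48% and 4.05% had an unadjusted p below 0.05 in these comparisons. The genes with a lower fitted level in KO were 3 of 35 against HxD and 12 of 35 against WT. The smallest p in both KO comparisons belonged to 1 of these, the kinase Cdk18. It had 33.6 ± 2.08 CPM in KO, 54.4 ± 19.5 CPM in HxD and 53.3 ± 8.56 CPM in WT (SD, n = 4), with adjusted p = 0.307 for KO against HxD and 0.407 for KO against WT. Cdk18 did not share the list's arrangement of libraries. It had 65.4, 30.4, 74.35 and 47.5 CPM in HxD 1 to 4 and 51.7, 59.3, 60.3 and 41.8 CPM in WT 1 to 4. HxD 2 and WT 4 were thus the lowest of their genotypes for this gene. Cd9, a tetraspanin, was 0.30 ± 0.21 higher in KO than in WT on the log2 scale (adjusted p = 0.718). Sgk2 had 22, 46, 12 and 0 estimated counts in KO, 0 in all HxD libraries and 0, 0, 16 and 0 in WT, so no fold change is given.

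Genes of earlier steps had medians between -0.07 and 0.03. Oligodendrocyte precursor genes, 15 of 16 tested, had medians of -0.04 in KO against HxD, -0.07 in KO against WT and 0.03 in HxD against WT, with 6, 6 and 9 of 15 higher and 0 called. Their scores were 0.30, -0.24, 0.22 and -0.20 in HxD 1 to 4, so HxD 1 and HxD 3, the low libraries for myelin genes, were the high ones here. The scores were -0.14, 0.05, -0.07 and 0.17 in KO 1 to 4 and 0.11, -0.22, 0.29 and 0.17 in WT 1 to 4. WT 4 and KO 4, the highest of their genotypes for myelin genes, were thus not low for precursor genes. Pdgfra, a gene of this list, had 1139, 0, 0 and 644 estimated counts in HxD 1 to 4. It had 185, 18, 820 and 507 in KO 1 to 4 and 655, 848, 691 and 876 in WT 1 to 4. Its row thus varied widely in KO as well as in HxD, and it was at 0 in HxD 3, where the list score was high. Bcan, a proteoglycan of the perineuronal matrix, and Cacng4, an AMPA receptor auxiliary subunit, led this list in KO against WT with 0.24 ± 0.09 and -0.49 ± 0.25 (adjusted p = 0.411 and 0.589). Regulators of oligodendrocyte differentiation, 17 of 22 tested, had medians of -0.03, 0.02 and 0.01 in the same order of comparisons, with 7, 9 and 10 of 17 higher and 0 called. An unadjusted p below 0.05 was reached by 1, 1 and 0 precursor genes and 3, 2 and 1 regulators, against 11.6%, 9.48% and 4.05% of all genes tested. Sox8, the close relative of Sox10, had 89.1, 101, 88.3 and 91.1 CPM in KO, against 61.3, 61.9, 76.2 and 61.9 CPM in HxD and 57.8, 67.2, 51.8 and 86.6 CPM in WT. All KO libraries of Sox8 lay above all others, by 0.50 ± 0.15 over HxD and 0.49 ± 0.15 over WT on the log2 scale, and neither difference passed over all genes (adjusted p = 0.237 and 0.308). Id2, an inhibitor of differentiation, and Hes5, a Notch target, had edgeR adjusted p-values of 0.207 and 0.213 in KO against HxD. DESeq2 called both there, Id2 higher and Hes5 lower in KO, and it called 0 regulators in the other comparisons and 0 genes of the other mature oligodendrocyte and precursor lists in any. With limma-voom 0 genes of these 3 lists were called. DESeq2 called more than edgeR among all genes tested as well, 3.39% against 1.02% in KO against HxD.

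Of the 31 genes of myelin lipid synthesis, which here stand for cholesterol, fatty acid and sphingolipid enzymes that other cells use too, 30 were tested. Their medians were -0.02 in KO against HxD, 0.00 in KO against WT and -0.04 in HxD against WT, with 13, 17 and 13 of 30 higher. In KO against HxD 1 gene was called, and in KO against WT and HxD against WT 0 were, with 6, 3 and 1 at an unadjusted p below 0.05. Over all genes tested edgeR called 1.02%, 0.154% and 0.898% in the same order. An unadjusted p below 0.05 was reached by 11.6%, 9.48% and 4.05% of all. The called gene was Fdft1, squalene synthase, the first enzyme committed to sterols. It had 60.8, 90.05, 127 and 56.9 CPM in KO 1 to 4, against 21.2, 12.3, 5.27 and 5.07 CPM in HxD 1 to 4 and 51.6, 53.1, 90.7 and 31.5 CPM in WT 1 to 4. The 4 HxD libraries lay below all others. Fdft1 rose by 2.93 ± 0.53 on the log2 scale in KO over HxD (adjusted p = 0.0233), and its difference of -2.37 ± 0.51 between HxD and WT had an adjusted p of 0.0884. In KO over HxD the adjusted p lay above 0.05 without KO 2, KO 3, HxD 2, HxD 3 or HxD 4 (up to 0.0716), with only the 8 libraries compared (0.0733) and with the striatal marker score as a covariate (0.148). DESeq2 called 4 genes of this list in KO against HxD, where it called 3.39% of all genes tested, and 1, Fdft1, in HxD against WT, where it called 1.47%. Of this list limma-voom called Fdft1 alone in KO against HxD, where it called 0.718% of all genes tested. Axon-glia junction genes, 15 of 19 tested, had medians of 0.10, -0.11 and -0.31 in the same order, with 8, 7 and 2 of 15 higher and 0 called by edgeR, with 2, 3 and 0 at an unadjusted p below 0.05. DESeq2 called 1 of them, the ankyrin Ank2, in each KO comparison, and limma-voom called 0. DESeq2 called 3.39% of all genes tested in KO against HxD and 2.46% in KO against WT. Ank2 had 80.3, 13.1, 19.8 and 59.8 CPM in KO 1 to 4, against 326, 547, 434 and 116 CPM in HxD and 203, 1199, 83.9 and 728 CPM in WT. Every KO library lay below all others. By edgeR it was -3.05 ± 0.89 in KO against HxD and -3.69 ± 0.92 in KO against WT on the log2 scale (adjusted p = 0.233 and 0.199).

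Markers of other cell types moved with the libraries in part. Striatal projection neuron markers, for tissue that borders the cortex, had scores of -0.09, -1.17, -0.51 and -0.75 in KO 1 to 4, against 0.63, 0.71, 1.85 and -0.76 in HxD 1 to 4 and 0.06, -0.24, 0.84 and -0.16 in WT 1 to 4. Of the 14 markers 11 were tested, and 0 of 11 were higher in KO against HxD (median -1.77), 0 of 11 in KO against WT (median -0.99) and 10 of 11 in HxD against WT (median 0.65). By edgeR 0 were called, with 5, 1 and 1 at an unadjusted p below 0.05, which 11.6%, 9.48% and 4.05% of all genes tested reached. DESeq2 called 2 in KO against HxD, where it called 3.39% of all genes tested. The summed level ran from 304 to 462 CPM in KO, 272 to 1231 CPM in HxD and 421 to 725 CPM in WT. Between 3 and 4 markers were listed at 0 in a KO library, 1 to 3 in a HxD library and 2 to 3 in a WT library, and the defining receptor gene Drd1 was at 0 in KO 1 to 3 and WT 2. HxD 3 was the lowest library for the oligodendrocyte genes and the highest for these markers, while HxD 2 was high in both. With the marker score as a covariate, the median over the 36 oligodendrocyte genes was 0.15 with 26 of 36 higher in KO against HxD, 0.11 with 22 of 36 higher in KO against WT and -0.15 with 24 of 36 lower in HxD against WT, and 0 genes were called.

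Astrocyte markers, 12 of 12 tested, had a summed level of 4392 to 4857 CPM in KO, 3523 to 4377 CPM in HxD and 3467 to 4413 CPM in WT. Their medians were 0.27 in KO against HxD with 9 of 12 higher, 0.25 in KO against WT with 10 of 12 higher and 0.08 in HxD against WT with 7 of 12 higher. By edgeR 0 were called, with 5, 3 and 0 at an unadjusted p below 0.05, and DESeq2 called 1, Gjb6, in KO against HxD. For this and the following lists, 11.6%, 9.48% and 4.05% of all genes tested had an unadjusted p below 0.05. DESeq2 called 3.39% of all genes tested in KO against HxD. Markers of cortical excitatory neurons summed to 2648 to 3088, 2765 to 3790 and 3133 to 4241 CPM in KO, HxD and WT libraries, and 1 to 3 of 12 were listed at 0 in a library. Of these, 10 were tested, and 4 of 10 were higher in KO against HxD (median -0.10), 1 of 10 in KO against WT (median -0.12) and 4 of 10 in HxD against WT (median -0.04). By edgeR 0 were called, with 2, 2 and 1 at an unadjusted p below 0.05, and DESeq2 called 1, Bcl11b, in KO against HxD. Choroid plexus markers summed to 5.56 to 13.5 CPM in KO, 4.39 to 275 CPM in HxD and 6.38 to 40.7 CPM in WT. The highest value was HxD 1, where Ttr, their most abundant gene, had 2290 estimated counts. Meningeal fibroblast markers summed to 62.9 to 181, 45.4 to 222 and 88.0 to 256 CPM, microglial markers to 437 to 611, 524 to 657 and 527 to 627 CPM, and endothelial and mural markers to 368 to 496, 378 to 418 and 389 to 453 CPM in KO, HxD and WT. Of the endothelial and mural markers 8 of 12 were tested, and 7 of 8 were higher in KO against HxD (median 0.27), 5 of 8 in KO against WT (median 0.16) and 3 of 8 in HxD against WT (median -0.08), with 2, 2 and 1 at an unadjusted p below 0.05. Meningeal markers, 10 of 10 tested, were higher for 4, 1 and 2 of 10 in the same order (medians -0.05, -0.18 and -0.21), and microglial markers, 9 of 12 tested, for 4, 3 and 2 of 9 (medians -0.03, -0.12 and -0.09). Of the choroid plexus markers 4 of 10 were tested, with 1, 2 and 3 of 4 higher (medians -1.40, -0.21 and 1.53). By edgeR, DESeq2 and limma-voom 0 genes of these 4 lists were called, and at an unadjusted p below 0.05 edgeR had 0 meningeal genes in each comparison and 1 microglial and 1 choroid plexus gene, both in KO against HxD. For these lists the part in the results on oligodendrocyte genes was not tested.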

How the data were processed

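The authors deposited 1 table of estimated counts per gene symbol and library, which are whole numbers without normalization and were left as they are. Per the submitters' processing notes, the tools were STAR 2.7.1a, StringTie 2.2.3, SAMtools 1.9, Trim Galore 0.6.7 and FastQC, and the builds mm10 and GRCm39, with no role or order given. The sources used here do not state read assignment, strand or filters. Per the labels' protocols, total RNA of whole cortex was column-purified and mRNA taken on oligo d(T) beads. The values were taken as estimated and not as plain counts because ubiquitously used genes are listed at 0. The 25 symbols on 56 rows were left out (at most 0.567% of a library's counts).

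Computed here: the edgeR 4.0.16 quasi-likelihood F test in R 4.3.3, with TMM factors and filterByExpr at a minimum count of 10. All 12 libraries entered 1 fit on genotype, with 9 residual degrees of freedom, two-sided, adjusted by Benjamini-Hochberg over 11693 genes. Log2 values of single libraries are of CPM plus 0.5. The steps were tested on simulated data. Genes are named by a rule: per comparison the 6 members with the smallest p, always Mbp, Mog, Mag, Mobp, Cnp, Sox10, Olig2 and Myrf, members outside the filter or listed at 0 beside 100 or more counts in the same genotype, and of each pathway list the called genes or up to 2 with the smallest p. Other members are described by role. The members, gene lists and tests were chosen with earlier results of these data known, so no list is tested as a whole. Lengths are of the longest GENCODE M21 transcript, and promoter windows and transcript numbers are from RefSeq (GRCm38.p6). Counts are reads without molecular identifiers, so depth limits counting error only.

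Alternatives were DESeq2 size factors, library size only, the DESeq2 1.42.0 Wald test, limma-voom (limma 3.58.1), no filter and a minimum count of 50, a fit on only the 8 libraries compared, a block for the replicate number, a striatal marker score as a covariate, a transcript length trend removed, an adjusted p below 0.1, and each library left out. Counts of members by direction and the values for Fdft1 under these settings were added after the data were seen.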

Additional observations from a re-analysis of the deposited data

Results flagged for a closer look

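A check for single libraries apart from the rest covered 60 groups of 4 libraries (19 named genes and the score of the 36 genes, in 3 genotypes). Genes were taken as log2 (CPM + 0.5), so the gaps are not those of the CPM printed below. The gap of 1 library to the nearest other, as a share of the group's range, passed Dixon's 95% critical value in 9 groups. Chance flags about 1 group in 20. These groups are not independent, because the genes vary together over the same libraries.

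KO 4 stood above the other KO libraries for Qdpr at 437 CPM, and Myrf was listed at 0 in KO 1, below the other KO libraries. HxD 2 stood above the other HxD libraries for Evi2a at 31.3 CPM and for Sox10 at 110.1 CPM. WT 4 stood apart in 5 groups, with a score of 0.73 and with 356 CPM for Cldn11, 73.6 CPM for Mobp, 19.3 CPM for Enpp6 and 40.0 CPM for Ppp1r14a, each above the other 3 WT libraries.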

How the results depend on the processing

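In each comparison 0 of 36 genes were called in all 23 settings, with lowest adjusted p-values of 0.151 in KO against HxD, 0.141 in KO against WT and 0.699 in HxD against WT. Of 792 log2 fold changes of named genes under a setting, 764 kept their direction and 28 did not. The median over the 36 genes ranged from 0.33 to 0.79 in KO against HxD, 0.11 to 0.57 in KO against WT and -0.58 to 0.08 in HxD against WT when single libraries were left out, and from 0.15 to 0.58, 0.11 to 0.32 and -0.30 to -0.15 under other settings. The number of genes higher in KO ranged from 32 to 34 against HxD and 27 to 35 against WT, and the number lower in HxD than in WT from 12 to 34, when single libraries were left out. Of the values outside 1.5 times the count or 1 SD of the score, both came without WT 4 (12 lower in HxD against WT, and a median of 0.57 in KO against WT).

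Directions changed when single libraries were left out, with these ranges of log2 fold change. In KO against HxD they were -0.19 to 0.47 for Mag and -0.0595 to 0.41 for Sox10. In KO against WT they were -0.76 to 0.21 for Mbp, -0.0894 to 0.68 for Sox10 and -0.20 to 0.0529 for Olig2. In HxD against WT they were -0.58 to 0.00864 for Pllp, -0.82 to 0.0146 for Cldn11, -0.86 to 0.0608 for Opalin, -0.66 to 0.34 for Mog, -0.57 to 0.25 for Mobp, -0.61 to 0.0417 for Cnp, -0.18 to 0.59 for Sox10 and -0.0562 to 0.19 for Olig2. With the striatal marker score as a covariate, Mbp was -0.28 and Mag -0.33 in KO against HxD and Mog was 0.0186 in HxD against WT, and with the length trend removed Mbp was 0.10 in KO against WT. The cause was not tested.

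With the replicate number as a block, 0 genes were called in each comparison, and 33 were higher in KO than HxD, 32 higher in KO than WT and 28 lower in HxD than WT. Deviations of same-numbered libraries correlated between -0.071 and 0.078 over genes, which shows no clear pairing by number. Differently numbered libraries were not set beside them, so this check cannot exclude pairing. With 4 libraries per genotype, intervals of 21 to 32 of the 36 genes reached a 2-fold difference.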
